A study of Mus musculus with 8 samples.

Results

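Keratins are the intermediate filament proteins of epithelial cells. A filament is built from pairs of a type I and a type II keratin, so neither type makes a filament alone. In the mammary gland, Krt8, Krt18, Krt19 and Krt7 belong to the luminal cells that line ducts and alveoli, whereas Krt5, Krt14, Krt15 and Krt17 belong to the basal cells, which contract around the alveoli during lactation. These 8 keratins were chosen by gene symbol from the 27998 genes of the count tables, which hold 51 keratin genes in all. For each mouse and cell cluster, the unique molecular identifiers (UMIs, each standing for 1 captured transcript molecule) of each keratin were summed over cells and divided by all UMIs of the sum, giving CPM, the number of UMIs scaled to a common total. Only sums of 20 or more cells were used, which left 35 sums over clusters C1 to C15.

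The cells came from C57BL/6N females at 4 stages, with 2 mice and 1 library per mouse at each stage. NP mice were nulliparous and 8 weeks old. The ages of the other mice are not given, so age and stage cannot be told apart. G mice were taken at gestation day 14.5, L mice at day 6 of lactation, and PI mice 11 days after natural weaning. Live EpCAM+ cells were sorted, with cells carrying CD31, CD45 or Ter119 excluded, and were sequenced by a droplet method that reads transcript 3′ ends. The methods of the study place 3 of the NP and PI mice in oestrus and PI replicate 1 in dioestrus, so oestrous stage and mouse cannot be told apart in the PI group. The mice carried no transgene or engineered allele that the labels name. Libraries held 13785920 to 35711533 UMIs and 1449 to 5736 annotated cells that passed quality control, with median depths of 3770 to 9624 UMIs per cell.

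Cluster names follow the deposited annotation. Clusters C1 and C2 are hormone-sensing progenitors (Hsp) of PI and NP glands, and C3, C4 and C5 are hormone-sensing differentiated cells (Hsd) of PI, NP and G glands. Clusters C6 and C7 are luminal progenitors (Lp) of NP and PI glands. Clusters C8 and C9 are differentiated alveolar cells (Avd) and C10 and C11 alveolar progenitors (Avp), in each case of G and L glands. Basal cells are C12 (NP, with a few PI cells), C13 (G) and C14 (L), and C15 is a further cluster of L glands grouped with them. The study sorted clusters into luminal and basal groups by Krt18, Krt8, Krt5, Krt14 and Acta2, so keratin differences between clusters are given here as a description, without a test. Tests were kept for changes of 1 cell type between stages.

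The 8 genes lie in the 2 keratin clusters of the mouse genome (GRCm38). The type I genes Krt15 (11:100131758-100135928), Krt19 (11:100140810-100148665), Krt14 (11:100203162-100207548) and Krt17 (11:100256217-100261029) are all on the minus strand of chromosome 11, and Krt15 and Krt19 are 4881 bases apart. The type II genes Krt7 (15:101411043-101430313, plus strand), Krt5 (15:101707070-101712898, minus strand) and Krt8 (15:101996698-102004482, minus strand) are on chromosome 15. Krt18 (15:102028180-102032027, plus strand) is the exception, a type I gene beside the type II genes, 23697 bases from Krt8 and facing away from it. A predicted antisense gene overlaps Krt7, and a non-coding gene on the other strand overlaps the start of Krt8. Where the kit's strand was not used in counting, reads of such partners could not be told apart. Krt14 and Krt17 are close in sequence to each other and to Krt16 and Krt42, as is Krt5 to Krt6a, so reads within these groups may have been split between members.

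The 100 bases before the outermost annotated 5′ end are shown for the luminal pair Krt8 and Krt18, whose levels moved together most closely across luminal clusters, and for basal Krt5, as RefSeq gives them (GRCm38.p6). Each is written 5′ to 3′ on the strand of its gene, with capitals marking the letters AGGTCA or ATAAAA.
Krt8, chr15:102004483-102004582, minus strand: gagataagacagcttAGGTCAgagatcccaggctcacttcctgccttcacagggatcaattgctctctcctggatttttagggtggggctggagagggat
Krt18, chr15:102028080-102028179, plus strand: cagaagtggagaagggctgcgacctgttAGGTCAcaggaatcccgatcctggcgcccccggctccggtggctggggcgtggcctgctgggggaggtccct
Krt5, chr15:101712906-101713005, minus strand: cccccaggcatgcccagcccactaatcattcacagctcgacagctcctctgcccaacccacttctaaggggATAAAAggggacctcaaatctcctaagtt
The letters AGGTCA stood in the Krt8 and the Krt18 window and ATAAAA only in the Krt5 window of these 3. Searched on both strands, AGGTCA occurred in 5.88% and ATAAAA in 7.07% of windows from 32851 RefSeq promoters. Those windows were the 100 bases before the RefSeq start, without the shift to an outermost annotated end. TATAA was searched too (10.2% of those windows). So was GGGCGG (24.7%). The string TGANTCA was the last one searched (2.73%). These strings were chosen after the sequences had been seen, and a match is a description of letters only.

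Luminal keratins made up most of the keratin transcripts of every luminal cluster, but their total and their mix changed between cell types. A UMI stands for 1 captured molecule whatever the transcript length, but reads of similar keratins may have been split, and capture was not compared between genes. Levels and ratios of different keratins are therefore given as counted UMIs. The 8 keratins together were highest in Hsd cells after weaning (C3), at 22020 and 23970 CPM in the 2 mice. They were lowest in luminal cells in the differentiated alveolar cells of lactation (C9), at 2833 and 3619 CPM. In C9, the milk protein genes took 417200 to 447500 CPM of the transcripts.

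**Figure D1:**
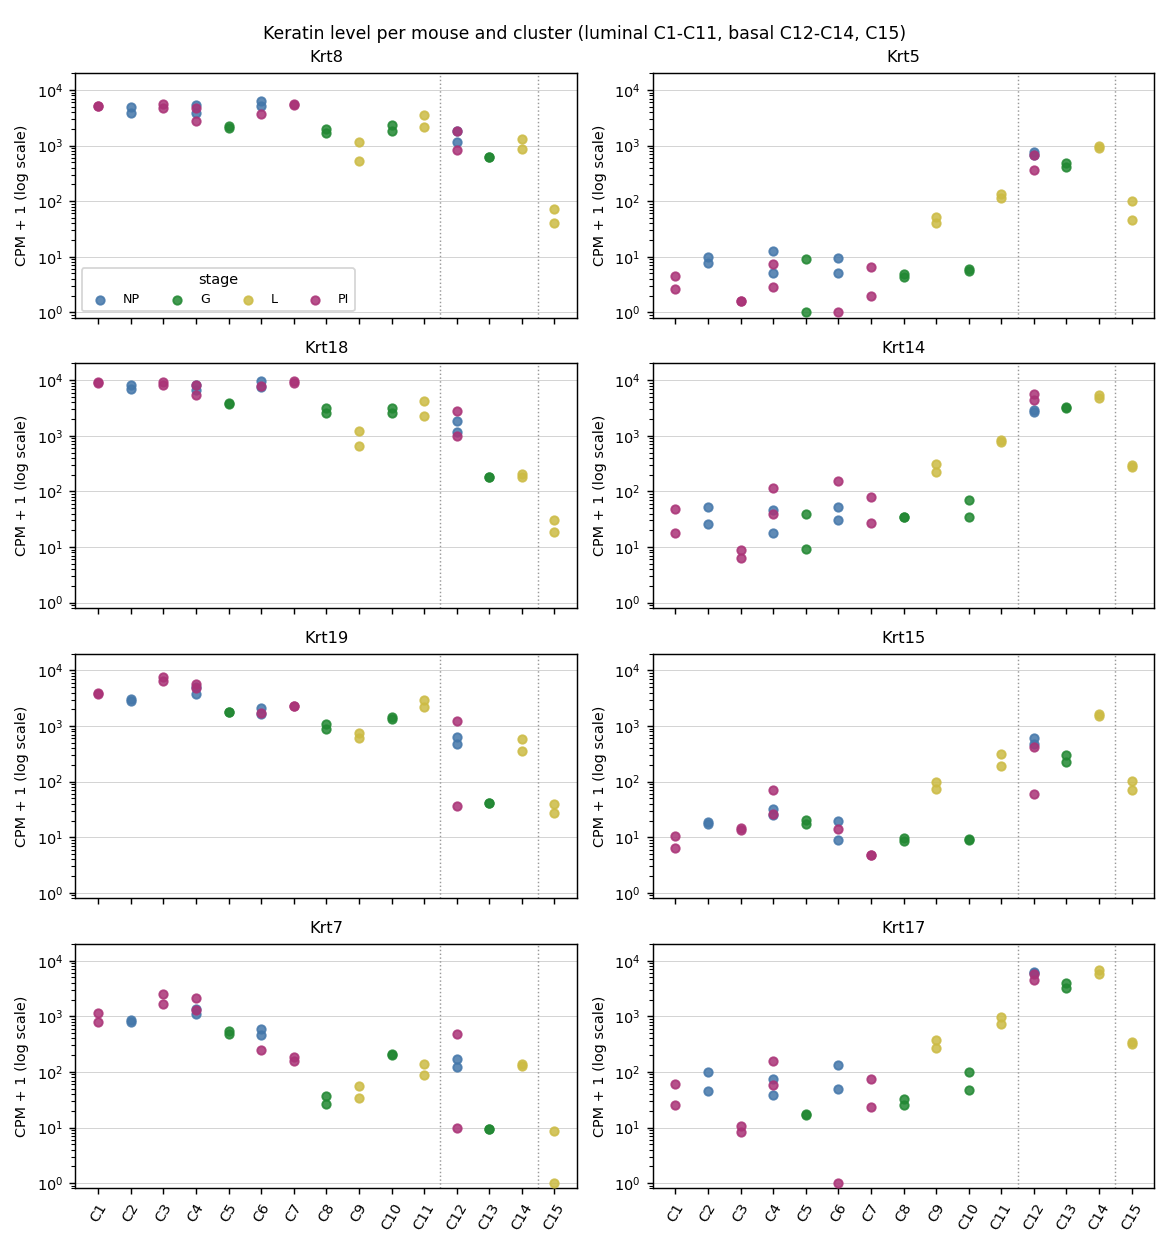
Level of each keratin (CPM + 1, log scale) by cluster, 1 panel per gene and 1 point per mouse, with NP, G, L and PI mice in different colours. Krt7 and Krt19 have their 4 highest means in C1 to C4, Krt18 is 9118 CPM in C1 and 954 CPM in C9, and Krt5, Krt14, Krt15 and Krt17 are highest in the basal clusters C12 to C14.

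Krt18 and Krt8 form the filament pair of simple epithelia. Krt18 had the highest mean of the 8 in each of the 11 luminal clusters. Krt18 was 9118 ± 155 CPM (mean ± SD over 2 mice, as for all means here) in C1, and luminal progenitors were close to it, C6 at 8759 ± 1499 CPM and C7 at 9232 CPM. The alveolar cells were lower, C8 at 2870 CPM and C9 at 954 ± 411 CPM. Krt8 followed at 5217 ± 39.6 CPM in C1, 5730 ± 847 CPM in C6, and in alveolar cells at 1838 (C8) and 839 ± 436 CPM (C9). Neither Krt18 nor Krt8 passed the test of L against G differentiated alveolar cells, given further below. In the order of cluster means, 11 of 14 neighbouring pairs overlapped between mice for Krt8 and 9 of 14 for Krt18, so most neighbours did not differ beyond their spread.

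Krt19, a type I keratin with almost no tail domain, and Krt7, a type II keratin of glandular epithelia, had their highest means in the hormone-sensing clusters of NP and PI mice, but not in the hormone-sensing cluster of gestation, C5 (1811 ± 9.90 and 504 ± 44.8 CPM). Krt19 was highest in C3 (6979 ± 720 CPM), C4 (4495 ± 916 CPM) and C1 (3916 ± 130 CPM), and was 1880 ± 284 CPM in luminal progenitors of NP mice (C6). Krt7 had the same leading clusters, C3 (2067 ± 601 CPM) and C4 (1215 ± 192 CPM), followed by C1, C2 and C6 (522 ± 87.2 CPM). It was 168 ± 19 CPM in luminal progenitors after weaning (C7) and 30.3 ± 7.46 CPM in alveolar cells of gestation (C8). In the order of cluster means, neighbours were apart more often for Krt19 and Krt7 than for Krt8 and Krt18. Of 14 neighbouring pairs, 8 did not overlap for Krt19 and 7 did not for Krt7, against 3 for Krt8 and 5 for Krt18. The basal keratins had 6 or 7 such pairs.

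Krt14 and Krt17, type I keratins of basal and appendage epithelium, were the most abundant keratins of basal cells, and the type II partner Krt5 was far lower. Krt17 was 6090 ± 163 CPM in C12 of NP mice, 3531 ± 518 CPM in C13 and 6328 ± 804 CPM in C14. Krt14 was 2802 ± 148, 3181 ± 72.1 and 5160 ± 399 CPM in the same clusters, and Krt5 was 731 ± 64.2, 448 ± 43.6 and 957 ± 59.4 CPM. Krt15, a type I keratin of basal layers, varied most among the 4, from 258 ± 51.6 CPM in C13 to 1578 ± 88.4 CPM in C14.

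Cluster C15, which the study names Procr+ basal cells, held few keratin transcripts in all. The 8 keratins summed to 900 and 872 CPM there. Their mix was near that of the basal cells of the same mice, with Krt17 at 36.9%, Krt14 at 32.3% and Krt15 at 9.7% in C15 beside 39.7%, 32.4% and 9.9% in C14. Several levels were near those of cells of other lineages in the same libraries. Krt14 was 286 CPM in C15, 260 ± 11.9 CPM in C18 fibroblasts and 311 ± 10.8 CPM in C19 endothelial cells, and Krt17 was 327, 267 and 353 CPM. Pericyte markers summed to 6022 and 5299 CPM in C15, against 120 and 57.4 CPM in C14.

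**Figure D2:**
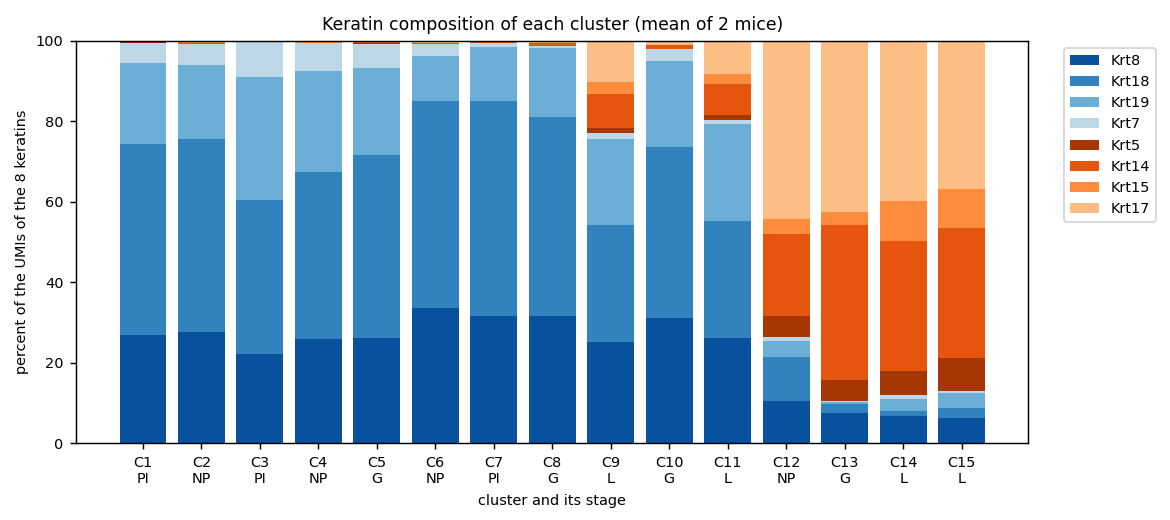
Share of each keratin in the UMIs of the 8 keratins, in percent, as stacked bars by cluster (mean of 2 mice). Krt18 takes 47.2% in C1 and 53.5% in C7, Krt19 takes 30.5% in C3, and Krt17 takes 44.2% in C12 and 39.7% in C14.

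Type I UMIs outnumbered type II UMIs in 15 of 15 clusters. The ratio of summed type I to summed type II UMIs ran from 1.72 in C6 to 2.71 in C9 among luminal clusters. In basal cells it was 4.95 ± 0.834 in C12, 6.63 ± 0.737 in C13 and 6.46 ± 1.55 in C14. Other keratins added little. The 8 keratins held 95.7% to 99.9% of all keratin UMIs, and of the other 43 keratin genes only Krt23 (129 ± 12.1 CPM in C13) and Krt6a (109 ± 10.8 CPM in C4) passed 100 CPM in any cluster mean.

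Within the luminal lineage Krt8 and Krt18 kept close to 1 proportion, and in gestation and lactation basal cells they did not. Krt8 per Krt18 was 0.572 in C1 and 0.901 ± 0.0746 in C11, the lowest and highest luminal means, a 1.58-fold span across 11 clusters. In NP basal cells the ratio was 0.966 and 1.02 in the 2 mice. In G basal cells (C13) it was 3.461 and 3.453, and in L basal cells (C14) 6.30 and 4.65. All 4 of the G and L values lay above every luminal value.

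**Figure D3:**
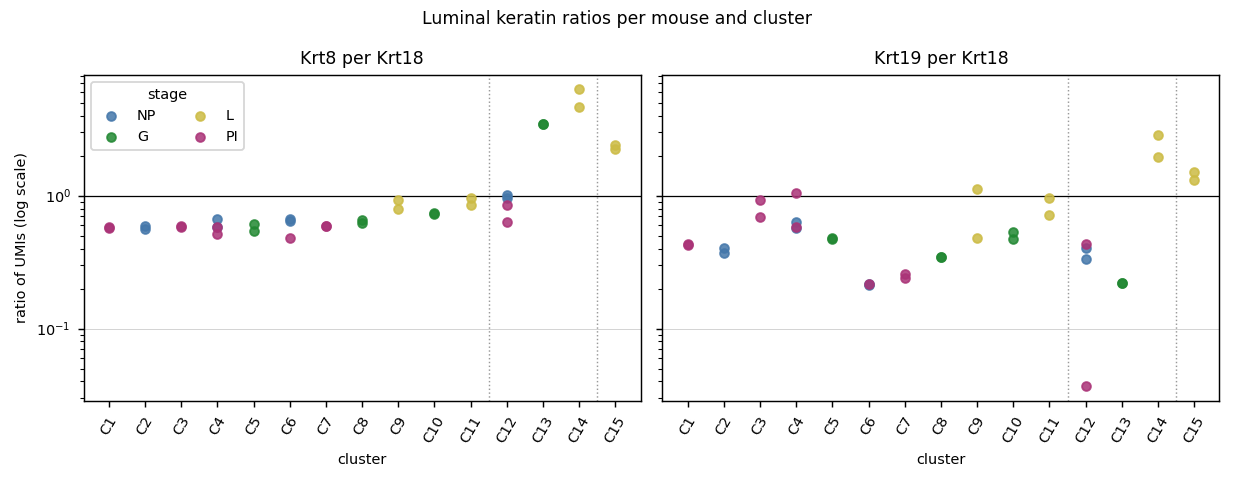
Krt8 per Krt18 and Krt19 per Krt18 (ratio of UMIs, log scale) by cluster, 1 point per mouse. Krt8 per Krt18 stays between 0.572 and 0.901 in the means of C1 to C11 and rises to 3.46 in C13 and 5.47 in C14.

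The other luminal ratios were less fixed. Krt19 per Krt18 was 0.215 in C6 and 0.248 in C7, against 0.804 in C3 and 0.840 in C11. Krt7 per Krt8 was 0.398 in C3, 0.0910 in C6, 0.0308 in C7 and 0.0164 in C8. Both ratios were thus higher in PI Hsd cells than in PI luminal progenitors. Across the 25 luminal sums the log2 levels of Krt8 and Krt18 correlated at r = 0.98 and those of Krt19 and Krt7 at r = 0.87, as a description, since sums of 1 mouse share a library and its depth.

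Krt18, Krt19 and Krt7 were far lower in basal cells of gestation than in those of NP glands, while Krt14 did not pass the test. In the summed basal cells of each mouse, Krt18 was 1864 and 1155 CPM in NP and 183 and 197 CPM in G. Krt19 was 624 and 467 CPM in NP and 40.7 and 45.6 CPM in G. Krt7 was 170 and 121 CPM in NP and 8.55 and 8.98 CPM in G, the latter resting on 34 and 40 UMIs. The G mice lay below both NP mice for each of these genes. C18 fibroblasts of the same libraries showed a fall too, with Krt18 at 448 ± 41.7 CPM in NP and 60.6 ± 10.4 CPM in G. In these fibroblasts Krt19 went from 232 ± 49.9 to 27.9 ± 7.5 CPM and Krt7 from 61.7 ± 5.53 to 0 CPM. The part of this background in the basal result was not tested. The sum of luminal markers other than keratins also went down, from 2723 and 1631 CPM in C12 to 730 and 837 CPM in C13. Among them Epcam was 1526 and 1105 CPM in NP and 398 and 515 CPM in G. Wfdc18 did not follow, at 482 and 102 CPM in NP and 260 and 272 CPM in G. The part of these markers in the result was not tested.

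With p-values from the quasi-likelihood test of edgeR, adjusted by the Benjamini-Hochberg method over all genes, Krt7 fell by 3.98 on the log2 scale (SE 0.449, adjusted p = 4.52e-06), Krt19 by 3.58 (SE 0.521, adjusted p = 5.26e-05) and Krt18 fell by 2.91 (SE 0.299, adjusted p = 1.87e-06). Krt8 fell by 1.15 (SE 0.249, adjusted p = 0.00156), from 1801 and 1181 CPM to 632 and 641 CPM. Of the basal keratins, Krt15 fell by 0.99, Krt17 by 0.69 and Krt5 by 0.63, and the value for Krt14 was 0.26 (adjusted p = 0.129). In all, 7 of 8 keratins were called, all lower, where 39.9% of all genes tested were called and 18.9% were called lower. With DESeq2 Krt15 was no longer called (adjusted p = 0.329), and at equal depth Krt7 (-4.33, adjusted p = 0.0725), Krt15 (0.0617) and Krt5 (0.26) were not. At equal cell number Krt5 (0.312) and Krt15 (0.134) were not called. Krt5 was not called without NP replicate 1 (0.0718) or G replicate 2 (0.0767), Krt15 without NP replicate 1 (0.0886) or G replicate 1 (0.109), and Krt17 without G replicate 1 (0.0532).

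Part of the luminal signal in G basal cells was at the level of cells of other lineages in the same libraries. In C17 immune cells of G mice, Krt18 was 109 ± 5.94 CPM and Krt19 34.2 ± 4.46 CPM, against 183 ± 0.283 and 40.2 ± 0.389 CPM in C13. With each cell thinned to 1000 UMIs (no cell was shallower in these groups), 14.1% and 15.2% of C13 cells held a Krt18 UMI against 13.3% and 14% of C17 cells, which is near the highest background. Fewer C18 fibroblasts (5.26% and 3.23%) and C19 endothelial cells (6.06% and 9.64%) held one. Krt8 stood clear of it, at 41.3% and 41.4% of C13 cells against 13.3% and 11.6% of C17 cells. In NP basal cells Krt18 was also above the C18 fibroblasts of the same mice, at 56.4% and 50.7% of cells against 41.7% and 28.6%. Median depths in these groups were 6046 and 6302 UMIs in C12 and 5336 and 4980 UMIs in C18.

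In lactation Krt7, Krt19 and Krt15 rose in basal cells and Krt18 stayed low. Krt7 was 128 and 137 CPM in L basal cells (2708 and 2277 UMIs), a rise of 4.04 on the log2 scale from G (SE 0.439, adjusted p = 1.27e-06, edgeR). Krt19 was 592 and 357 CPM, a rise of 3.58 (SE 0.518, adjusted p = 2.64e-05), and Krt15 was 1641 and 1515 CPM, a rise of 2.73 (SE 0.292, adjusted p = 1.05e-06). L and G mice did not overlap for any of the 3.

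Krt18 was 208 and 184 CPM in L, beside 183 and 197 CPM in G, and did not pass the test (log2 change 0.17, adjusted p = 0.63). Krt8 rose by 0.90, Krt5 by 1.22, Krt17 by 0.96 and Krt14 by 0.83. Thus 7 of 8 keratins were called higher, where 50.1% of all genes were called and 25.2% were called higher. With glmTreat, which tests against a log2 change of 1, 3 of 8 were called. Epcam, the surface protein used in the sort, went the other way, to 133 and 162 CPM in L basal cells.

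The L basal level of Krt7 was as high as in the alveolar progenitors of the same mice, unlike that of Krt18. In C14 Krt7 was 149% and 99.6% of its level in C11, while Krt19 was 26.6% and 12%, Krt18 9.05% and 4.42%, and Epcam 7.36% and 6.22%. Thinned to 1000 UMIs, 10.8% and 10.9% of C14 cells held a Krt7 UMI, against 1.76% and 1.92% of C18 fibroblasts and 0.524% and 0% of C19 endothelial cells. C17 immune cells had a higher Krt7 mean than C18 and C19, 19.8 ± 13.8 CPM, beside 133 ± 6.22 CPM in C14. Median depths were 3701 and 4148 UMIs in C14, 4044 and 4015 in C18 and 3378 and 4028 in C19. None of the 51 C19 cells of the second mouse held a thinned Krt7 UMI.

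Single basal cells differed in their balance of luminal and basal keratins. The luminal share was taken as Krt8 and Krt18 UMIs over the sum of Krt8, Krt18, Krt5 and Krt14, in cells with 10 or more such UMIs. A share between 0.25 and 0.75 was found in 69.5% and 60.6% of NP basal cells (C12) and in 24.8% and 25.9% of G basal cells (C13). In L basal cells (C14) it was 33.1% (95% exact interval 31.7% to 34.5%) in replicate 1 and 13.7% (12.5% to 15%) in replicate 2, so the L mice lay on either side of the G mice. Of 60 C17 immune cells of L replicate 1 that had enough such UMIs, 33.3% (21.7% to 46.7%) lay in the same range, so the L value of that mouse was not above this background. The intervals cover counting error only.

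After weaning, the basal cells of the 2 mice disagreed on Krt19 and Krt7. These sums rest on 28 and 59 cells. Krt19 was 35.0 and 1110 CPM and Krt7 8.74 and 429 CPM (1 and 134 UMIs), beside 624 and 467 CPM and 170 and 121 CPM in NP. The 2 PI mice lay below and above both NP mice for each gene. Leaving out PI replicate 2 turned the log2 change of Krt7 from 0.82 to -4.28 and that of Krt19 to -4.18. Of 5 immune marker genes only 1 had UMIs in C12 of each PI mouse, at 852 CPM in PI replicate 1 and 11 CPM in PI replicate 2. Luminal markers other than keratins summed to 1972 and 2977 CPM in the same sums. The part of these markers in the result was not tested.

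In PI basal cells Krt14 was 5578 and 4395 CPM, above 2907 and 2701 CPM in NP, a log2 rise of 0.66 (SE 0.135, adjusted p = 0.00893, edgeR). Krt15 was 402 and 67.2 CPM after 600 and 488 CPM in NP, a fall of 1.77 (SE 0.389, adjusted p = 0.0136), and Krt5 fell by 0.79 (SE 0.199, adjusted p = 0.0309). The PI mice lay below both NP mice for Krt15 and Krt5 and above them for Krt14. Thus 3 of 8 keratins were called where 4.47% of all genes were. Krt5 was not called with DESeq2 (adjusted p = 0.069) or without NP replicate 1 (0.135), NP replicate 2 (0.0659) or PI replicate 2 (0.505), nor with RLE size factors (0.0791), the compared stages alone (0.0754), equal cell number (0.704) or equal depth (0.497). Krt15 was not called with DESeq2 (0.37) or without NP replicate 1 (0.0596) or PI replicate 2 (0.344), at equal cell number (0.159) or at equal depth (0.147). Krt14 was not called without NP replicate 2 (0.0574) or PI replicate 1 (0.0569), or in sums of 50 or more cells (0.0569).

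Luminal progenitors after weaning had less Krt7 than those of nulliparous mice. Krt7 was 584 and 461 CPM in NP and 156 and 182 CPM in PI, a fall of 1.54 on the log2 scale (SE 0.147, adjusted p = 3.64e-05, edgeR). Krt15 was 18.4 and 7.87 CPM in NP (61 and 19 UMIs) and 3.98 and 3.99 CPM in PI (30 and 32 UMIs), a fall of 1.68 (SE 0.363, adjusted p = 0.00621). The groups did not overlap for either gene. Krt8 (log2 change 0.01), Krt18 (0.15) and Krt19 (0.36, adjusted p = 0.109) did not pass the test. The 2 calls of 8 stand beside 26.9% of all genes called. Krt15 was not called without NP replicate 1 (adjusted p = 0.18), whereas Krt7 was called whichever mouse was left out. Milk protein genes moved with these changes, 7 of 7 tested rising (median log2 change 5.78, against -0.02 over all genes), and their part in the result was not tested.

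**Figure D4:**
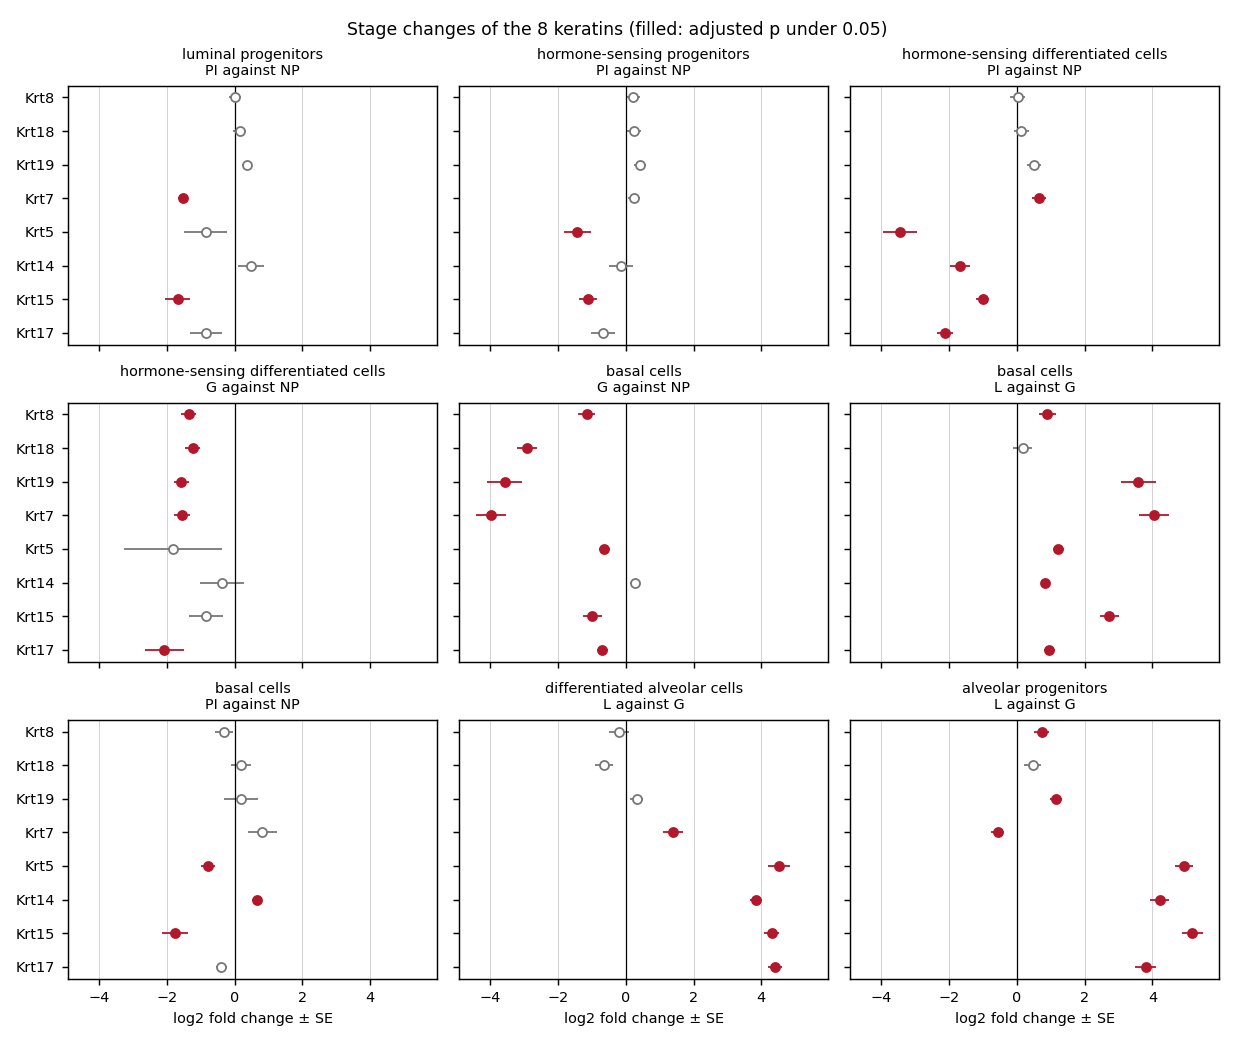
Log2 fold change of each keratin in 9 stage comparisons, with bars of 1 SE; filled points have an adjusted p below 0.05 in edgeR. Krt7 falls by 1.54 in luminal progenitors after weaning and by 3.98 in basal cells of gestation, and rises by 4.04 in basal cells of lactation.

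Hormone-sensing cells did not share the fall of Krt7. In Hsd cells Krt7 was 1356 and 1080 CPM in NP and 1612 and 2479 CPM in PI, a rise of 0.66 (SE 0.209, adjusted p = 0.0281). It was not called with DESeq2 (adjusted p = 0.0791), without NP replicate 2 (0.173) or without PI replicate 2 (0.519). Equal cell number (0.328), equal depth (0.13), and the compared stages alone or sums of 50 or more cells (0.0815 for both) ended the call too. In Hsp cells Krt7 was 873 and 775 CPM in NP and 813 and 1136 CPM in PI (log2 change 0.24, adjusted p = 0.418), and the groups overlapped.

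All 4 basal keratins, which were low in Hsd cells, fell after weaning in the summed Hsd cells of each mouse. Krt5 went from 11.6 and 4.05 CPM to 1.10 and 0.623 CPM (4 and 10 UMIs in PI), a fall of 3.45 (SE 0.496, adjusted p = 7.27e-06, edgeR). Krt17 fell by 2.13 (SE 0.228, adjusted p = 4.13e-08), Krt14 by 1.68 (SE 0.29, adjusted p = 0.000103) and Krt15 by 1.01 (SE 0.187, adjusted p = 0.000219). With Krt7, 5 of 8 were called, where 16.8% of all genes were called and 9.18% were called lower. Acta2, the smooth muscle actin of basal cells, went from 61.2 and 28.5 CPM to 4.11 and 9.28 CPM in the same sums, and Mylk, a contractile kinase, from 4.15 and 1.51 CPM to 0.548 and 1.87 CPM. Their part in the result was not tested. The PI sums held mostly C3 cells. In C4 alone (40 and 88 PI cells), PI means were higher than NP means for Krt14 (75.5 against 31.3 CPM), Krt15 (48.1 against 27.6 CPM) and Krt17 (107 against 55.8 CPM). The Krt5 mean in C4 was lower (4.12 against 7.83 CPM). Mice of the 2 stages overlapped in C4 for each of these genes. Without NP replicate 1, Krt14 was not called (adjusted p = 0.0536).

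In Hsp cells Krt5 (9.08 and 6.65 CPM in NP, 1.54 and 3.57 CPM in PI) fell by 1.44 (SE 0.4, adjusted p = 0.0293). Krt15 (18 and 16.2 CPM in NP, 5.13 and 9.32 CPM in PI) fell by 1.11 (SE 0.263, adjusted p = 0.0136). The groups did not overlap for either gene. Krt14 (51.4 and 25.4 CPM in NP, 16.9 and 48.0 CPM in PI, log2 change -0.13, adjusted p = 0.847) and Krt17 (-0.68, adjusted p = 0.212) did not pass the test. The 2 calls of 8, both lower, stand beside 16.6% of all genes called and 7.05% called lower. Acta2 was 65.5 and 35.8 CPM in NP and 9.74 and 68.0 CPM in PI, with groups that overlapped. Neither keratin was called with DESeq2 (adjusted p = 0.194 and 0.1) or without either NP mouse (0.107 to 0.262), and Krt5 was not called without PI replicate 1 (0.0566) or with a replicate block (0.0504).

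Relative to the basal cluster of the same mouse, Krt15 in luminal clusters of NP and G glands stood higher than the other basal keratins in most cases. In C4 of the 2 NP mice Krt15 was at 5.12% and 5.12% of its level in C12, while Krt5 was at 1.5% and 0.593%, Krt14 at 1.58% and 0.613%, Krt17 at 1.25% and 0.597% and Acta2 at 1.10% and 0.531%. In C5 of the G mice, the same gene was at 7.32% and 6.57% of C13, resting on 2 and 5 UMIs. It was also above Krt5, Krt14 and Krt17 in alveolar cells of gestation, with C8 at 3.39% and 3.01% against 0.787% to 1.10%, and in C6 of NP mice at 3.07% and 1.65% against 0.605% to 2.21%. Krt15 per Krt14 was 1.07 ± 0.571 in C4 and 2.05 ± 0.631 in C3, against 0.191 in C12 of NP mice. C3 is a cluster of PI mice. In their own C12, of 27 and 53 cells, Krt15 was 412 and 59.9 CPM, and C3 was at 3.27% and 20.7% of it. Krt15 levels in the luminal clusters were low, 27.6 CPM in C4 and 13 ± 0.764 CPM in C3, beside 10.3 ± 5.79 CPM in C18 fibroblasts of NP mice. In G mice Krt15 was 17.8 ± 2.21 CPM in C5 and 8.2 ± 0.96 CPM in C8. It was 19.1 ± 1.99 CPM in C17 immune cells, 12.4 ± 4.3 CPM in C19 and 3.32 ± 4.7 CPM in C18 of the same libraries. The G luminal means were thus not above the highest of these backgrounds.

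**Figure D5:**
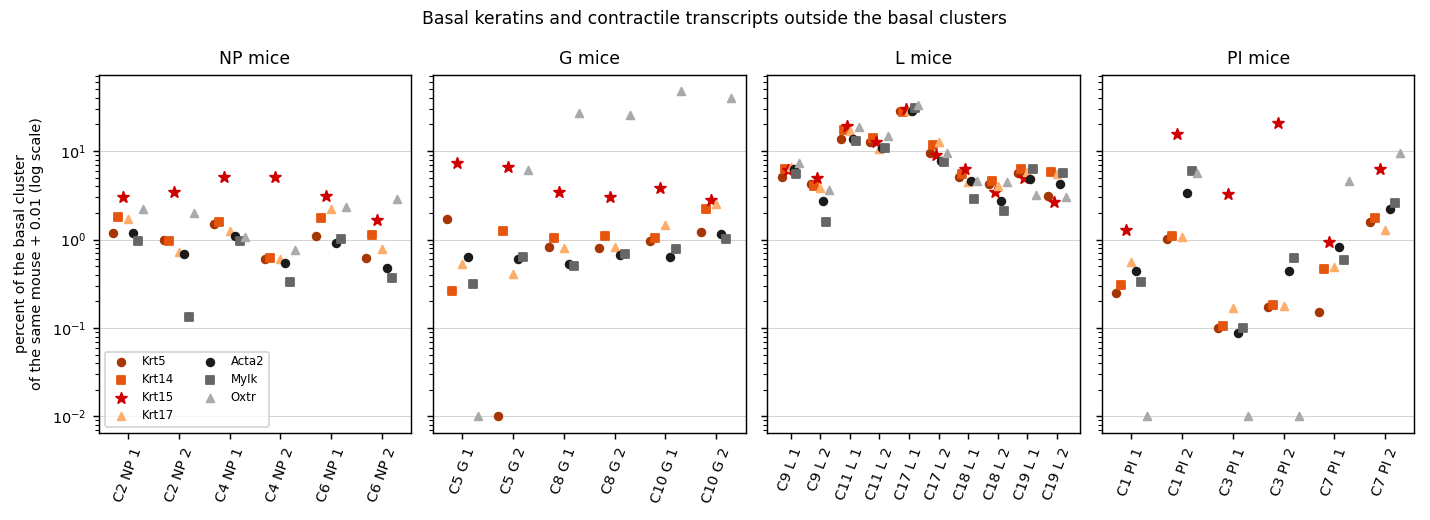
Level of basal keratins and of the contractile and hormone receptor genes Acta2, Mylk and Oxtr in other clusters, as a percent of the basal cluster of the same mouse (percent + 0.01, log scale), by stage. In C4 of NP mice Krt15 sits at 5.12%, above the other keratins, and in C11 of L replicate 1 Krt14 sits at 17.5% beside Acta2 at 13.8%.

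Differentiated hormone-sensing cells were few in gestation, and all 4 luminal keratins were lower there. The sums rest on 20 and 41 cells. Krt8 was 5406 and 3903 CPM in NP and 2093 and 2284 CPM in G, a fall of 1.35 (SE 0.222, adjusted p = 3.86e-05, edgeR). Krt18 fell by 1.24 (SE 0.221, adjusted p = 0.000128), Krt19 by 1.58 (SE 0.218, adjusted p = 2.55e-06) and Krt7 by 1.56 (SE 0.24, adjusted p = 1.51e-05), and for none of the 4 did the groups overlap. With Krt17, which fell by 2.08 (SE 0.575, adjusted p = 0.0117), 5 of 8 were called lower, where 15.6% of all genes were called and 9.10% were called lower. Without G replicate 2, only Krt8 and Krt19 were called, and without G replicate 1 Krt17 was not (adjusted p = 0.164). Red blood cell markers summed to 625 and 426 CPM in these cells, with UMIs in only 2 and 1 of the 4 marker genes. Their part in the result was not tested. This comparison and that of PI with NP Hsd cells share the NP mice.

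In lactation, basal keratins were higher in both alveolar cell types than in gestation. In differentiated alveolar cells Krt14 was 33.5 and 34.3 CPM in G and 307 and 218 CPM in L, and Krt17 381 and 263 CPM in L. Krt5, Krt14, Krt15 and Krt17 rose by 3.84 to 4.52 on the log2 scale (adjusted p from 2.4e-08 to 7.28e-07, edgeR). In alveolar progenitors Krt14 was 33.7 and 69.3 CPM in G and 822 and 786 CPM in L, and the 4 rose by 3.8 to 5.17. No L mouse overlapped a G mouse for these keratins.

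Contractile genes of basal cells moved with them. Acta2 was 73.5 and 69.3 CPM in G and 1648 and 622 CPM in L differentiated alveolar cells. In C11 of L replicate 1, Krt14 was at 17.5%, Krt15 at 19.1%, Acta2 at 13.8% and Mylk at 12.9% of the level in C14, and in replicate 2 at 14.1%, 12.7%, 10.7% and 10.8%. In C9 the 4 genes were at 6.27%, 6.07%, 6.23% and 5.50% in replicate 1, and in replicate 2 the keratins (4.01% and 4.89%) were above Acta2 (2.73%) and Mylk (1.57%). In C17 immune cells of the same libraries the same 4 genes were at 27.3%, 29.8%, 28.4% and 31.0%, and at 11.7%, 9.07%, 7.78% and 7.53%. Cells annotated as immune thus carried basal keratin UMIs too, whose source was not tested. Krt15 per Krt14 was also alike, 0.333 in C9, 0.308 in C11 and 0.307 in C14. From G to L, Krt14 went from 47.9 to 260 CPM in C18 fibroblasts and from 255 to 311 CPM in C19 endothelial cells. Krt17 went from 67 to 266 CPM and from 288 to 353 CPM there. The C9 means, 262 and 322 CPM for Krt14 and Krt17, were near these L levels. C11, at 810 and 860 CPM, was above them but below the C17 means of L mice (984 and 1248 CPM). The part of this background in the rise was not tested.

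The luminal keratins of alveolar cells moved less and in different ways. In alveolar progenitors Krt19 was 1345 and 1482 CPM in G and 2188 and 2970 CPM in L, a rise of 1.15 (SE 0.179, adjusted p = 0.00147). Krt8 rose by 0.73 (adjusted p = 0.0379) and Krt7 fell by 0.57 (adjusted p = 0.0499), the latter from 200 and 208 CPM to 92.2 and 137 CPM. The mice did not overlap for Krt19 or Krt7 but did for Krt8, which was 1837 and 2333 CPM in G and 2186 and 3532 CPM in L. Krt7 was not called with DESeq2 (adjusted p = 0.276) or without G replicate 1, G replicate 2 or L replicate 1 (0.109 to 0.294), nor with RLE size factors, equal cell number, equal depth or the main cluster only (0.0547 to 0.0659). Krt8 was not called without G replicate 1 (adjusted p = 0.233) or at equal cell number (0.0627). In all, 6 of 8 were called higher and 1 lower, where 28.0% of all genes were called and 15.7% were called higher.

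In differentiated alveolar cells, 5 of 8 keratins were called, all higher, where 18.7% of all genes were called and 9.54% were called higher. Besides the basal keratins this was Krt7, with a log2 rise of 1.40 (SE 0.293, adjusted p = 0.00523). Its CPM, 25.0 and 35.6 in G and 55.4 and 32.2 in L (32 and 24 UMIs), overlapped between stages. With milk protein genes left out of the totals they were 27.7 and 37.7 CPM in C8 and 101 and 55.5 CPM in C9, without overlap. Krt18 (log2 change -0.64, adjusted p = 0.125), Krt8 (-0.2, adjusted p = 0.701) and Krt19 (0.32, adjusted p = 0.282) did not pass the edgeR test. The CPM of each of these was lower in L than in G, without overlap. Krt7 was not called without L replicate 1 (adjusted p = 0.0743).

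The change of a keratin between NP and PI glands was also compared between cell types, in 6 contrasts of 48 keratin values. Krt7 in Hsd cells differed from Krt7 in luminal progenitors by 2.16 on the log2 scale (adjusted p = 2.28e-05, edgeR), and in Hsp cells by 1.67 (adjusted p = 0.00269). Krt14 in Hsd cells differed from Krt14 in luminal progenitors by -2.17 (adjusted p = 0.00164) and from basal cells by 2.24 as basal minus Hsd (adjusted p = 0.00191). In all 9 of 48 were called. The share of all genes called was 2.66% for Hsp minus Lp, 17.8% for Hsd minus Lp, 7.90% for basal minus Lp, 2.89% for Hsd minus Hsp, 5.11% for basal minus Hsp and 6.46% for basal minus Hsd. With DESeq2 only the 2 Krt14 contrasts were called, and the Krt7 contrasts of Hsd and Hsp with luminal progenitors were not (adjusted p = 0.256 and 0.628). The 6 contrasts share cell types and mice.

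Genes that work with keratins were taken from lists and changed to different degrees. Desmosomes anchor keratin filaments at cell junctions. In luminal progenitors, where 26.9% of all genes were called, 5 of 8 desmosome genes fell after weaning, Dsc2 by 1.82, Dsp by 1.81, Pkp1 by 1.41, Pkp3 by 1.11 and Perp by 0.46, and none rose (median -0.78). Of 9 other keratins tested in these cells 4 fell, Krt16 by 2.52, Krt79 by 2.21, Krt6a by 2.01 and Krt23 by 1.48. Of 7 hemidesmosome and plakin genes, which tie filaments to the basement membrane and cytoskeleton, 3 fell, among them the cytolinker Plec by 1.06 and the plakin Ppl by 0.99.

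In basal cells between G and L, where 50.1% of all genes were called and 25.2% were called higher, 5 of 7 hemidesmosome and plakin genes rose, among them Ppl by 1.82, Dst by 0.94 and Col17a1 by 0.89, and Itga6 fell by 0.59. The median log2 change of those 7 was 0.89, against 0.03 over all genes tested. Of 7 other intermediate filament genes (median 0.65) 4 rose, with the muscle filament genes Des by 3.00 and Synm by 2.53 and the mesenchymal filament Vim by 2.27, and 2 fell. Of 9 desmosome genes (median 0.03) 3 rose and 2 fell, near the shares of all genes, the latter Pkp2 by 2.73 and Dsc2 by 1.96. In the preceding comparison of G with NP basal cells, Pkp2 had fallen by 2.98 and Synm risen by 3.02.

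Across the 35 sums, the genes most like each keratin were named by Pearson's r of log2(CPM + 1) over 3709 genes, as a description, since sums of 1 mouse share a library. Krt18 was most like Spint1 (r = 0.977) and Epcam (0.966), and Krt8 was most like Krt18 (0.952). Krt7 was most like Capsl (0.918) and Wfdc2 (0.909). Krt5 was most like Krt17 (0.96) and the hemidesmosome collagen Col17a1 (0.947), Krt14 like the Notch ligand Dll1 (0.938), and Krt15 like Col17a1 (0.905).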

How the data were processed

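Counts were deposited as UMI counts per gene and cell, 1 matrix per library, with the authors' table of cell clusters and quality flags. The authors used Cell Ranger with the mm10 build, and the submitters' processing notes name STAR and mm10. Versions are not given in the sources used here. The members and gene lists were chosen with earlier results of these data known, and so was every alternative.

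Cells had to pass the authors' flags (25010 annotated, 1 of which has no barcode in the counts), which also drop barcodes that several libraries share: 791 of 25806 barcode entries were found in more than 1 library. Doublets were not called again, and the doublet cluster of the annotation was left out. UMIs were summed per mouse and cluster, or per mouse and cell type for tests, with a minimum of 20 cells, and divided by all UMIs of the sum. The log2 scale for correlations used a pseudocount of 1.

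Stages were compared with edgeR 4.0.16 (quasi-likelihood test, TMM factors, filterByExpr) in R 4.3.3, 1 fit per cell type over all its stages, so comparisons of 1 cell type share samples. A second fit over cell types gave the differences of the PI to NP change. Benjamini-Hochberg adjustment ran over all genes tested, with a threshold of 0.05. Alternatives were DESeq2 1.42.0, other size factors, no filter, glmTreat, a replicate block, leaving out each mouse, equal cell number or depth, 50 or more cells, only the main cluster, the compared stages alone and totals without milk genes. Replicates were separate mice, 2 per stage, and an exact permutation test of 2 against 2 cannot go below a two-sided p of 0.333. The fits were tested on simulated counts. Named keratins are the 8 members, and the 3 genes most like each were taken among genes of at least 100 CPM in 1 sum. Cells were thinned with a fixed seed.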

Additional observations from a re-analysis of the deposited data

Results flagged for a closer look

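For 9 keratin values the change from NP to PI glands differed between 2 cell types in edgeR's quasi-likelihood test of the difference, adjusted over all genes. Each value is the log2 change in the cell type named first minus that in the second. Krt7 differed by 1.67 for Hsp minus Lp, 2.16 for Hsd minus Lp and 2.12 for basal minus Lp. For Hsd minus Lp, Krt5 differed by -2.61 (adjusted p = 0.039), Krt14 by -2.17 and Krt17 by -1.36 (adjusted p = 0.0197). For basal minus Hsd, Krt5 differed by 2.46 (adjusted p = 0.0281), Krt14 by 2.24 and Krt17 by 1.66 (adjusted p = 0.0091). The basal PI sums rest on 28 and 59 cells, and the basal Krt7 value reverses to -2.82 without PI replicate 2. In Hsd cells of PI mice Krt5 rests on 4 and 10 UMIs. Without PI replicate 2, neither Krt5 (-0.24, adjusted p = 0.946) nor Krt17 (-0.43, adjusted p = 0.663) was called for Hsd minus Lp, and for basal minus Hsd neither Krt5 (adjusted p = 0.12) nor Krt17 (0.0836) was. Without NP replicate 1, Krt5 was called neither for Hsd minus Lp (0.0502) nor for basal minus Hsd (0.0659). With DESeq2, the 2 Krt14 values were called and the other 7 were not.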

How the results depend on the processing

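The number of keratins called changed with these choices. In luminal progenitors 2 were called, 5 with no filter, 0 with glmTreat and 1 to 4 with 1 mouse left out. In Hsp cells 2 were called, 1 with DESeq2, 1 with the replicate block, 0 with glmTreat and 0 to 4 with 1 mouse left out. In Hsd cells, 5 were called between PI and NP, 2 with glmTreat and 0 at equal cell number or equal depth, where the low basal keratins no longer passed the filter; between G and NP 5 were called, 0 with glmTreat and as few as 2 with 1 mouse left out. In basal cells, 7 were called between G and NP, 3 with glmTreat and 4 at equal depth, and 7 between L and G, 3 with glmTreat. Between PI and NP basal cells 3 were called, 1 with DESeq2, 5 with no filter, 0 with glmTreat, 1 at equal depth and as few as 1 with 1 mouse left out. In alveolar progenitors 7 were called and 4 with glmTreat. Of the 48 parity contrasts 9 were called, 2 with DESeq2 and 8 to 17 with 1 mouse left out (17 without PI replicate 1, 16 without PI replicate 2). The causes were not tested.

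Among values that passed the test with or without the alternative, directions reversed where 1 PI mouse was left out. Values that passed in neither changed sign more widely, such as basal Krt18 between PI and NP (-0.52 at equal cell number), Avd Krt8 (0.17 at equal cell number) and Hsd Krt14 between G and NP (0.45 without NP replicate 1). Without PI replicate 2, basal Krt19 changed by -4.18 and Krt7 by -4.28 (0.89 and 1.41 without PI replicate 1), and the parity contrast of Krt7 was -2.82 for basal minus Lp and -4.34 for basal minus Hsp (2.86 and 0.96 without PI replicate 1). Without PI replicate 1, the contrasts basal minus Lp were 0.56 for Krt18 and 0.53 for Krt19, and basal minus Hsp was 0.53 for Krt19 (-1.18, -4.73 and -4.72 without PI replicate 2). Type I exceeded type II in 15 of 15 clusters with equal weight per cell and with either replicate left out. Totals without milk genes cancel in this ratio and could not change it, and no other setting was run for it. The replicate numbers did not pair the mice, since the correlations of same-numbered deviations ran from -0.08 to 0.18. With the replicate block, Hsp Krt5 was lost (adjusted p = 0.0504), Avd Krt18 was gained (0.0231), and no other keratin call changed. The setting of 50 or more cells left too few sums for G against NP Hsd cells and L against G Avd cells and was not run there.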
